A study of Mus musculus with 16 samples.

Results

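The genes described here, whose RNA levels were lower in the heart region of Greb1l mutant mouse embryos, are Emp1, Rtn4rl2, Fndc5, Gpr155, Plcb1, Ripk3 and Car7. These 7 genes were picked by symbol out of 48526 because their levels were lower in the mutants of 1 or both mutant lines and because they belong to no tissue-specific gene family of the study. All 7 were found in the tables of both lines. Since the mutant and control levels themselves decided the choice, those levels are given as a description, without a test. Tests are given for measures that the choice of the 7 genes did not use: the relatives and pathway partners of the genes, the sex of the embryos, and the variation between embryos of the same group. The lists of partners and of cell type markers were, however, chosen with earlier results of these data known.

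Total RNA of the heart region, dissected from single mouse embryos of the C57BL/6J strain at embryonic day 8.5 (E8.5), had been sequenced. The G3 line gave 4 embryos labelled mutant (Greb1lem1Cjean/em1Cjean) and 4 control (WT) littermates, and the G17 line gave 4 mutants (Greb1lex17/ex17) and 4 control (WT) littermates. Both alleles are given as homozygous, and the labels name no transgene or drug. The embryos are told apart below by the numbers in their labels.

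The genes have unrelated jobs. Emp1 encodes a membrane protein of the PMP22 family, a group of small proteins that span the membrane several times and take part in cell contacts. Rtn4rl2 encodes a relative of the Nogo receptor, a surface receptor for myelin-associated inhibitors of axon growth in the nervous system, and Fndc5 encodes the membrane precursor of irisin, a secreted peptide known from muscle. Gpr155 encodes a lysosomal membrane protein known in human cells as LYCHOS, which senses cholesterol and acts on the mTORC1 growth pathway through the GATOR1 complex. Plcb1 encodes a phospholipase C that is switched on by Gq proteins and splits a membrane lipid into inositol trisphosphate and diacylglycerol. Ripk3 encodes the kinase that phosphorylates MLKL in necroptosis, an inflammatory form of cell death, and Car7 encodes a cytosolic carbonic anhydrase, known mostly from neurons, which interconverts carbon dioxide and bicarbonate.

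By the GENCODE M21 annotation of GRCm38, all 7 are protein-coding and lie on 5 chromosomes. Emp1 is on chromosome 6 (135362545 to 135383173, plus strand), Fndc5 on chromosome 4 (129136999 to 129144593, plus strand), Ripk3 on chromosome 14 (55784995 to 55788865, minus strand) and Car7 on chromosome 8 (104534689 to 104550343, plus strand). The other 3 share chromosome 2: Gpr155 (73341506 to 73386572, minus strand), Rtn4rl2 (84871924 to 84886710, minus strand) and Plcb1 (134786067 to 135475258, plus strand). Only Gpr155 and Plcb1 overlap other annotated genes. The antisense genes over Gpr155, Gm13703 and Gm13709, averaged 0.479 and 0 normalized reads over the 16 embryos. A pseudogene inside Plcb1, Gm14036, averaged 12.1, and the antisense genes 4930545L23Rik and 9630028H03Rik averaged 0.228 and 0. Whether the libraries marked strand is not known, and reads of such pairs cannot be told apart.

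The promoter sequences of Gpr155, Plcb1 and Fndc5 are shown because these genes were lower in every mutant than in every control of both lines. RefSeq (GRCm38.p6) gives the 250 bases before each start site, and what lies before the first annotated base of the gene is printed, on the strand of the gene. For Emp1, the other gene with that pattern, the window before the most upstream RefSeq start lies wholly within the annotated gene and is not printed. Capitals mark the GC box, GGGCGG on either strand, with overlapping matches counted separately.
Gpr155 (chr2:73386573-73386730, minus strand): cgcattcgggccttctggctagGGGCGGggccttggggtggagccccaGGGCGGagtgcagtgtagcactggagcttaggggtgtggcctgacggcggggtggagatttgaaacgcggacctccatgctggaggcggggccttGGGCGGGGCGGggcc
Plcb1 (chr2:134785914-134786066, plus strand): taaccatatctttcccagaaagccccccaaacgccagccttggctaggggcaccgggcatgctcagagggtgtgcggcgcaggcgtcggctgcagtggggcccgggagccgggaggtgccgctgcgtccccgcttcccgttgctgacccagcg
Fndc5 (chr4:129136749-129136998, plus strand): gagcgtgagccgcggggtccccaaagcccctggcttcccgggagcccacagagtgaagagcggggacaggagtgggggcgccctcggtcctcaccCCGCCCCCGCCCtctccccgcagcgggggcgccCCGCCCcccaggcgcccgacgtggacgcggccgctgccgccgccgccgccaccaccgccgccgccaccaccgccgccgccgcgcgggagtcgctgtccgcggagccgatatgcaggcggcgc
The printed stretch of Gpr155 holds 4 GC boxes, that of Fndc5 holds 3 and that of Plcb1 holds 0.

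Over the full windows of 250 bases, Gpr155 had 7 GC boxes, Fndc5 3, Rtn4rl2 2, and Plcb1 and Ripk3 1 each, while the 2 Emp1 windows had 0 and the 3 Car7 windows had 0, 3 and 1. A GC box was present in 32.7% of all 32851 RefSeq promoter windows of this length. The nuclear receptor half-site AGGTCA, searched because the GREB1 family is linked to steroid receptors, was found in the Gpr155 window and in the second Car7 window, against a share of 14.0% of all windows. The E-box CACGTG was found in the Ripk3 window (6.02% of all windows) and the AP-1 motif TGAGTCA in the first Emp1 window (4.46%). TATAAA was in none of the 10 windows of these genes and in 12.4% of all windows. All motifs were searched on both strands, and a match describes the letters only.

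Libraries held 32391421 to 49353025 reads in genes. Values below are normalized reads, that is reads divided by the size factor of the embryo within its line; a gene without a read could still have had up to 2.53 to 3.84 normalized reads, counting error only. Xist and Y-linked genes gave 2 females and 2 males in either G3 group and 8 females in G17. Greb1l RNA itself was higher in the G3 embryos labelled mutant (20144 ± 3377 normalized reads) than in G3 controls (10984 ± 1319; SD, n = 4 each; log2 difference 0.87 ± 0.11 SE, limma adjusted p = 0.000824), so these embryos are called labelled mutant. It was lower in G17 mutants (4215 ± 961) than in G17 controls (9818 ± 508; log2 difference -1.25 ± 0.13, limma adjusted p = 0.000288). The cardiac label was checked with 8 cardiomyocyte markers, whose sum was 114259 to 152971 normalized reads in G3 embryos labelled mutant and 108148 to 160700 in G3 controls, with none of the 8 at 0. In G17 it was 109685 to 160417 in mutants and 84511 to 145608 in controls. In whole tissue, fewer cells of a type and less RNA per cell cannot be told apart.

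**Figure D1:**
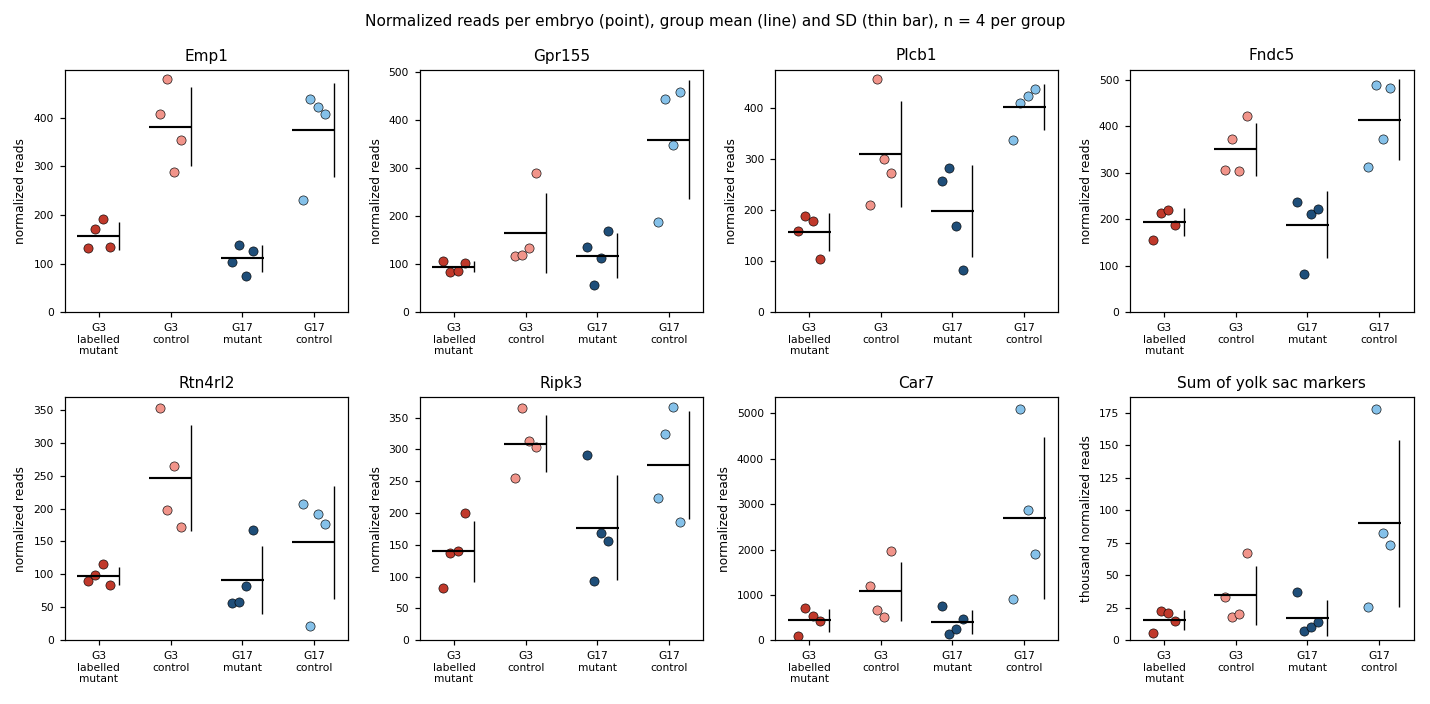
Normalized reads (y axis) of each of the 7 genes and of the sum of 6 yolk sac markers in every embryo (points), by line and genotype, with the group mean (line) and SD (thin bar), n = 4 per group. Emp1, Gpr155, Plcb1 and Fndc5 show no overlap of mutant and control embryos in either line, while Rtn4rl2 and Ripk3 overlap in G17 and Car7 overlaps in G3.

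Emp1, the PMP22 relative, was lower in every mutant than in every control of both lines. In G3 it had 133, 171, 192 and 135 normalized reads in embryos labelled mutant (embryos 23, 29, 30 and 31), against 407, 478, 287 and 353 in controls (16, 18, 20 and 21). In G17 it had 104, 139, 74.6 and 126 in mutants (33, 36, 41 and 42), against 231, 437, 421 and 407 in controls (20, 29, 35 and 37). The groups stood apart in both lines, and control 20 of G17 was low for its group. The mutant mean was 41.3% of the control mean in G3 (158 ± 28.97 against 381 ± 80.9 normalized reads, SD, n = 4 each) and 29.7% in G17 (111 ± 28.2 against 374 ± 96.0). On the scale of log2(normalized reads + 1), used for all differences below, mutants minus controls gave -1.26 ± 0.24 (SE) in G3 and -1.74 ± 0.33 in G17.

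Rtn4rl2, the Nogo receptor relative, stood apart between the groups of G3 and overlapped in G17. In G3 it had 89.4, 99.6, 117 and 84.6 normalized reads in embryos labelled mutant, against 352, 198, 265 and 173 in controls. In G17 it had 57.3, 58.5, 82.4 and 168 in mutants, against 207, 21.1, 191 and 176 in controls. The G3 groups did not overlap; in G17, control 29 was the lowest of all 8 embryos and mutant 42 came close to the other controls. The mutant mean was 39.5% of the control mean in G3 and 61.5% in G17, with log2 differences of -1.29 ± 0.30 and -0.42 ± 0.70. The G17 difference was -1.20 without control 29 and -0.12 without control 20, and it moved by more than 1.5 times without any of controls 35 and 37 and mutants 33, 36 and 42 as well (-0.76 to -0.16).

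Fndc5, the irisin precursor, was lower in every mutant than in every control of both lines. Levels of Fndc5 in G3 were 156, 213, 220.3 and 188 normalized reads in embryos labelled mutant, against 305, 373, 304 and 421 in controls. The G17 levels were 239, 82.6, 212 and 222 in mutants, against 312, 489, 372 and 483 in controls. The groups stood apart in both lines, and mutant 36 of G17 was far below the other mutants. Mutants averaged 55.4% of the control mean in G3 and 45.6% in G17, with log2 differences of -0.85 ± 0.22 and -1.22 ± 0.35.

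Gpr155, the lysosomal cholesterol sensor, stood apart by a small margin in both lines. G3 embryos labelled mutant had 107, 84.2, 85.8 and 102 normalized reads, against 118, 119, 135 and 291 in controls. G17 mutants had 136, 56.6, 113 and 169, against 188, 444, 349 and 459 in controls. Of the G3 controls, 3 lay just above the mutants and control 21 alone was high. Relative to the control mean, the mutant mean was 57.3% in G3 and 32.97% in G17, with log2 differences of -0.69 ± 0.36 and -1.62 ± 0.40. Without control 21, the G3 difference was -0.38.

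Plcb1, the Gq-driven phospholipase, had close to the same relative difference in both lines. Levels of Plcb1 in G3 were 159, 188, 178 and 105 normalized reads in embryos labelled mutant, against 210.0, 456, 300.2 and 273 in controls. The G17 levels were 258, 282, 169.9 and 83.5 in mutants, against 337, 409.5, 423 and 438 in controls. No mutant reached a control, though mutant 29 and control 16 of G3 were near each other, and the G17 mutants were spread widely. Mutants averaged 50.8% of the control mean in G3 and 49.4% in G17, with log2 differences of -0.95 ± 0.29 and -1.15 ± 0.35.

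Ripk3, the necroptosis kinase, stood apart in G3 and overlapped in G17. G3 embryos labelled mutant had 82.1, 138, 141 and 199.7 normalized reads, against 256, 365, 313 and 303 in controls. G17 mutants had 291, 92.8, 169 and 156, against 223, 324, 368 and 186 in controls. Mutant 33 of G17 was above controls 20 and 37 of its line, and the other 3 mutants were below every control. The mutant mean was 45.3% of the control mean in G3 and 64.4% in G17, with log2 differences of -1.19 ± 0.29 and -0.70 ± 0.37. The G17 difference was -0.43 without mutant 36.

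Car7, the carbonic anhydrase, had the highest levels, the widest spread between embryos and the log2 difference farthest below 0 of the 7 genes in both lines. In G3 it had 94.8, 716, 527 and 419.6 normalized reads in embryos labelled mutant, against 1189, 674, 512 and 1957 in controls. In G17 it had 762, 138, 256 and 461 in mutants, against 913, 5099.97, 2876 and 1905 in controls. The G3 groups overlapped, with mutant 29 above controls 18 and 20 and mutant 30 above control 20, whereas each G17 mutant was below each G17 control. The mutant mean was 40.5% of the control mean in G3 (439 ± 260 against 1083 ± 650 normalized reads, SD, n = 4 each) and 14.98% in G17 (404 ± 273 against 2698 ± 1790). The log2 differences were -1.43 ± 0.54 in G3 and -2.75 ± 0.52 in G17, and the one in G3 was -0.81 without mutant 23.

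Counted together, the mutants and controls of G3 did not overlap for 6 of the 7 genes, Car7 being the exception, and 5.61% of the 18025 genes tested in G3 had every embryo labelled mutant below every control. In G17 they did not overlap for 5 of the 7, with Rtn4rl2 and Ripk3 as the exceptions, beside 4.54% of 17706 genes. These counts follow from how the genes were chosen and support nothing by themselves. Among all genes tested, 1.13% had a lower log2 difference than Car7 in G17, whereas 15.8% had a lower one than Rtn4rl2 in G17.

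The size of the difference was compared between the lines with size factors computed over all 16 embryos together. The G17 minus G3 difference between the 2 log2 differences was -1.31 ± 0.85 (SE) for Car7, -0.92 ± 0.56 for Gpr155, -0.47 ± 0.41 for Emp1, -0.36 ± 0.42 for Fndc5, -0.20 ± 0.48 for Plcb1, 0.50 ± 0.49 for Ripk3 and 0.87 ± 0.81 for Rtn4rl2. None of these was larger than 2 SE. For Car7 and Gpr155 the lines were farther apart in their controls than in their mutants. G17 controls were above G3 controls by 1.23 ± 0.60 for Car7 and 1.13 ± 0.40 for Gpr155, while G17 mutants differed from G3 embryos labelled mutant by -0.08 ± 0.60 and 0.21 ± 0.40. Line, sex makeup and any batch of the separately normalized tables cannot be told apart.

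Because reads per gene grow with gene length, levels were also put on a per-length scale (RPKM over the annotated exon bases) to rank the genes. Car7 averaged 2.92 ± 1.73 RPKM in G3 embryos labelled mutant and 7.11 ± 4.26 in G3 controls, and 2.69 ± 1.82 in G17 mutants and 17.4 ± 11.3 in G17 controls (SD, n = 4 each). Over all 16 embryos the mean levels were 7.53 RPKM for Car7, 2.48 for Fndc5, 2.35 for Ripk3, 2.32 for Rtn4rl2, 1.03 for Emp1, 0.66 for Gpr155 and 0.57 for Plcb1. Each neighbouring pair in this order differed by less than the largest SD within a group of either gene. The median of 20010 expressed genes was 2.76 RPKM, and the means of 6 of the 7 over the 16 embryos lay below it.

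Within their families, these genes were mostly not the abundant members. Pmp22 (39.0 RPKM) and Tmem47 (23.5) were far above Emp1, Perp (4.52) and Emp2 (2.27) were above it, and Emp3 (0.62) was below it, except in G17 mutants, where Emp3 averaged 0.73 RPKM and Emp1 0.45. Plcb3 (11.5 RPKM) and Plcb4 (3.78) exceeded Plcb1, and Plcb2 (0.21) did not. Rtn4rl2, in contrast, had a higher level than its relatives Rtn4r (0.80 RPKM) and Rtn4rl1 (0.76). Among carbonic anhydrases, Car4 (167 RPKM), Car14 (36.2) and Car2 (18.9) exceeded Car7, except that Car2 averaged 17.3 and Car7 17.4 in G17 controls, and Car3 (4.34) and Car13 (3.67) had a lower mean over the 16 embryos. In the mutants that order was turned: Car7 averaged 2.92 RPKM against 4.85 for Car3 and 3.66 for Car13 in G3 embryos labelled mutant, and 2.69 against 4.04 and 3.51 in G17 mutants. Car1 and Car6 had no reads in any embryo.

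Few relatives and partners of the 7 genes were called in either direction, as was so for all genes. The partner lists were chosen with earlier results of these data known. In 7 lists of 81 genes, 72 were measured well enough to be tested in G3; 2 of them fell and 2 rose in embryos labelled mutant, where 1.63% of all genes fell and 2.35% rose. In G17, 73 were tested; none fell and 1 rose, where 1.16% of all genes fell and 1.87% rose. The median log2 difference over the partner genes was 0.04 in G3 and -0.10 in G17, beside 0.01 and -0.01 over all genes.

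The called partners came from 3 of the lists. Tnfrsf19, also called TROY, which can serve as a signalling subunit of the Nogo receptor, had 4973, 5214, 5132 and 4841 normalized reads in G3 embryos labelled mutant, against 3637, 3145, 2677 and 3013 in G3 controls. In G17 it had 5078, 4399, 5127 and 4513 in mutants, against 3689, 2999.7, 2599 and 2978 in controls. Every mutant was above every control in both lines, as for 5.91% of all genes in G3 and 5.39% in G17, with log2 differences of 0.70 ± 0.09 (limma adjusted p = 0.000601) in G3 and 0.65 ± 0.11 (limma adjusted p = 0.00645) in G17. Ngfr, the p75 neurotrophin receptor and the alternative signalling subunit, fell in G3: it had 53.3, 112, 12.8 and 29.6 normalized reads in embryos labelled mutant, against 268, 196, 308 and 329 in controls (log2 difference -2.76 ± 0.54, limma adjusted p = 0.0128). In G17, Ngfr had 113, 163, 284 and 62.4 in mutants, against 348, 218, 314 and 287 in controls, and the difference of -1.09 ± 0.42 did not pass (limma adjusted p = 0.204). Ngfr is also made by neural crest, whose 4 markers summed to 1678 to 2737 normalized reads in G3 embryos labelled mutant and 2292 to 3175 in G3 controls; their part in the Ngfr result was not tested. With the yolk sac marker sum described below as a term, the difference of Ngfr in G3 was -2.75 (limma adjusted p = 0.0712) and that of Tnfrsf19 in G17 was 0.55 (limma adjusted p = 0.199), so neither passed while both stayed near their size without the term. Tnfrsf19 in G3 still passed, at 0.74 (limma adjusted p = 0.00464). Rtn4, the Nogo ligand itself, was abundant (44.4 RPKM) and not called in either line.

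Among genes of lysosomal nutrient sensing, Depdc5, a subunit of the GATOR1 complex on which LYCHOS acts, rose in G3. It had 3019.5, 2766, 2823 and 2631 normalized reads in embryos labelled mutant, against 2248, 2308, 2129.99 and 2169 in controls (log2 difference 0.34 ± 0.07, limma adjusted p = 0.0212). In G17 it had 3197, 2931, 2933 and 2857 in mutants, against 2454, 2340.4, 2311 and 2409.9 in controls, a difference of 0.32 ± 0.08 that missed the threshold (limma adjusted p = 0.0529) although the groups did not overlap. The other 18 genes of the list were not called in either line. Itgb5, an integrin subunit of an irisin receptor, fell in G3 with 2418, 2824, 2290.5 and 2491 normalized reads in embryos labelled mutant, against 3717, 3415, 2926 and 3112 in controls (log2 difference -0.39 ± 0.09, limma adjusted p = 0.0320). In G17 its difference of -0.36 ± 0.10 missed the threshold (limma adjusted p = 0.0833). Other fits of G17 were split. Depdc5 passed with DESeq2 (adjusted p = 0.00673), the 5 CPM filter (limma adjusted p = 0.0361) and 1 fit of all 16 embryos (limma adjusted p = 0.00942). Itgb5 passed with DESeq2 (adjusted p = 0.0255) and that 1 fit (limma adjusted p = 0.0376). Neither passed with edgeR (adjusted p = 0.0512 and 0.0864) or limma-voom (adjusted p = 0.0590 and 0.0813). Nor did either pass in any of the 8 fits without 1 embryo. With the yolk sac term the G17 differences were 0.35 for Depdc5 and -0.14 for Itgb5 (limma adjusted p = 0.388 and 0.895). With the same term both G3 differences stayed near their size, at 0.30 for Depdc5 and -0.37 for Itgb5, but neither passed (limma adjusted p = 0.147 and 0.149). They were also lost in 5 of the 8 fits without 1 embryo: for Depdc5 without control 20 or 21 or mutant 23, 29 or 30 (limma adjusted p = 0.0560 to 0.0760), and for Itgb5 without control 16 or 21 or mutant 23, 30 or 31 (limma adjusted p = 0.0550 to 0.0954).

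No relative of Emp1, no partner of Plcb1 or Ripk3 and no other carbonic anhydrase was called in either line. The list medians were 0.17 in G3 and 0.19 in G17 for the 5 tested relatives of Emp1, and 0.21 and 0.18 for the Gq and phospholipase C genes. They were 0.02 and -0.16 for the necroptosis genes and -0.06 and -0.31 for the carbonic anhydrases. For lysosomal nutrient sensing they were 0.02 and -0.08, for the FNDC family and irisin partners -0.02 and -0.23, and for the Nogo receptor complex 0.06 and -0.02. A test of the difference between the lines, on all 16 embryos, called 0 of 76 partner genes (limma, Benjamini-Hochberg over 20010 genes), with 3 at an unadjusted p under 0.05.

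**Figure D2:**
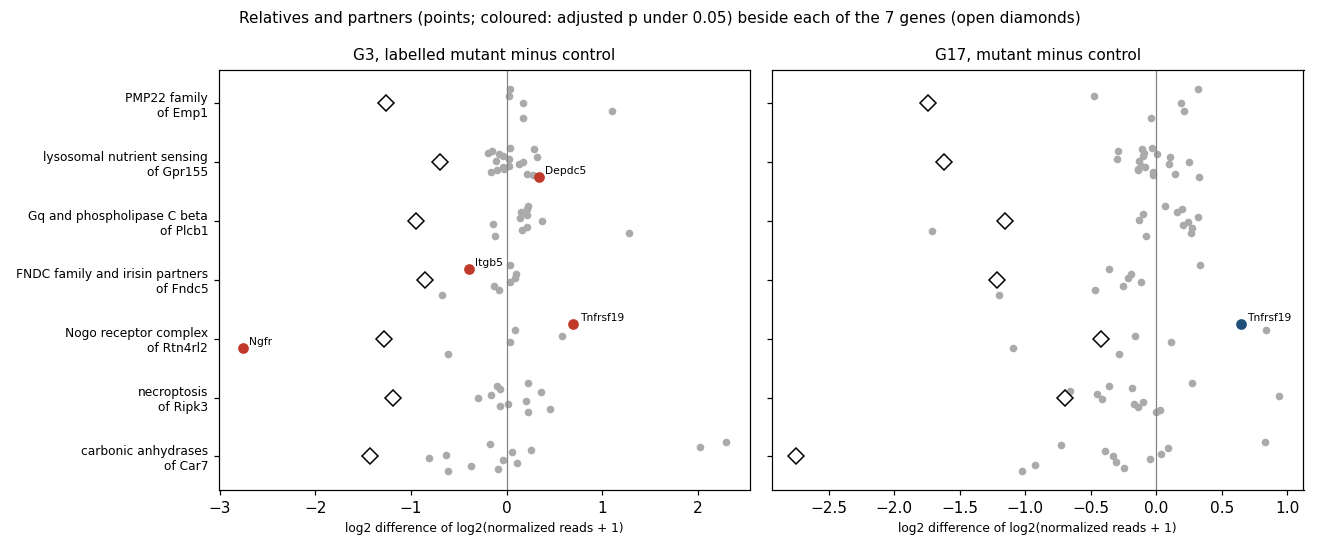
Log2 differences (x axis, mutant minus control) of the relatives and partners of each gene (points, 1 row per list) in G3 and G17, with the gene itself as an open diamond; coloured and named points had a limma adjusted p under 0.05. The diamonds lie to the left of most of their partners, whose median was 0.04 in G3 and -0.10 in G17. That position follows from how the genes were chosen. Tnfrsf19 is named on the right in both lines.

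Sex was balanced over genotype in G3 and gave a comparison that the choice of the genes had not used. Between the 4 female and 4 male embryos, none of the 7 genes passed the threshold (limma with genotype as a term, 0 of 7 past the threshold and 0 of 7 at an unadjusted p under 0.05). Over all 17329 autosomal genes tested, 0% were called, with 571 at an unadjusted p under 0.05. The intervals remain wide. For Emp1, with 249.99 normalized reads on average in female and 289 in male embryos, the log2 difference (female minus male) was -0.17. Its 95% interval was -0.71 to 0.37. For Car7 (709 in female and 813 in male embryos) the log2 difference of 0.37 had an interval of -0.82 to 1.55. Its sign is opposite to that of the means, as the low value of male mutant 23 (94.8) weighs more on the log scale.

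Embryos of the same group differed enough in these genes to ask what else varied with them. For each gene, deviations from the group mean of log2(normalized reads + 1) were correlated over the 16 embryos with each of the other 6 genes and with the summed markers of 9 cell types, 84 relations in all, with p from 100000 permutations within groups. A single relation passed after Benjamini-Hochberg adjustment: Car7 followed the sum of 6 markers of yolk sac visceral endoderm (Afp, Apoa1, Apob, Ttr, Rbp4 and Trf), with a Pearson r of 0.96 and a Spearman rho of 0.96 (permutation p = 2e-05 for each, adjusted p = 0.00168 for r). It was 0.95 without the 2 embryos farthest from the median of the marker sum, 0.97 within G3 and 0.96 within G17.

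The yolk sac markers are named for a neighbouring extraembryonic tissue, but which cells their reads came from was not tested. The markers themselves varied over a wide range between embryos. Their sum was 5350.2, 22266, 20751 and 15185 normalized reads in G3 embryos labelled mutant, against 32971, 17942, 20096 and 66850.3 in G3 controls. In G17 it was 37199.7, 7341, 9855 and 14058 in mutants, against 25375, 178071, 82698 and 73456 in controls. The groups overlapped in both lines, with the controls higher on balance, and none of the 6 markers was at 0 in any group. The lowest Car7 level in each line fell in the embryo with the lowest sum, mutant 23 in G3 and mutant 36 in G17, and the highest Car7 level in the embryo with the highest sum, control 21 in G3 and control 29 in G17.

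With the log2 marker sum as a term of the model, an alternative chosen after the data were seen, the Car7 difference was -0.15 ± 0.23 (SE) in G3 and -0.54 ± 0.30 in G17, against -1.43 and -2.75 without it. Emp1 and Plcb1 moved less, to -1.17 ± 0.31 and -1.06 ± 0.37 in G3 and to -1.33 ± 0.53 and -0.95 ± 0.57 in G17. Fndc5 was at -0.64 ± 0.26 in G3 and -0.42 ± 0.49 in G17, and Gpr155 at -0.48 ± 0.45 and -0.58 ± 0.56. Rtn4rl2 was at -1.29 ± 0.39 in G3 and -1.92 ± 0.995 in G17, while Ripk3 was at -1.004 ± 0.36 in G3 and turned to 0.22 ± 0.53 in G17. This fit has 1 residual degree of freedom fewer, and its term partly follows genotype.

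**Figure D3:**
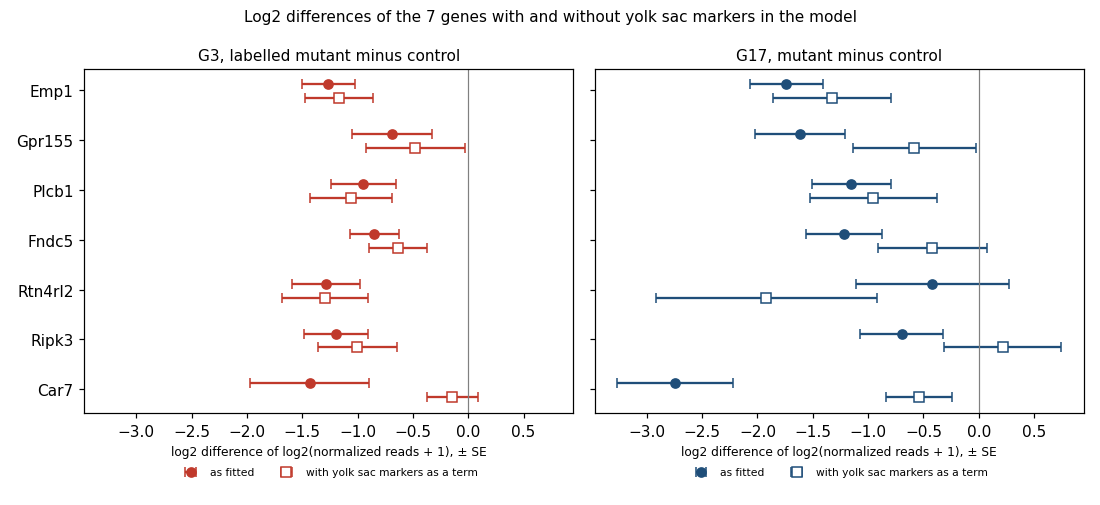
Log2 differences (x axis, mutant minus control, with SE bars) of the 7 genes (y axis) in G3 and G17, as fitted (filled circles) and with the summed yolk sac markers as a term (open squares). The Car7 square lies near 0 in G3 (-0.15) and at -0.54 ± 0.30 in G17. The Emp1, Plcb1 and Rtn4rl2 squares and their SE bars stay left of 0 in both lines. Those of Gpr155 do so only by a little (-0.48 ± 0.45 in G3 and -0.58 ± 0.56 in G17). The Ripk3 square lies right of 0 in G17 (0.22). A bar of 1 SE that misses 0 is not a test.

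Weaker relations did not pass the adjustment. The highest r with the markers of another cell type were 0.67 for Car7 with foregut endoderm (permutation p = 0.00567, adjusted p = 0.119) and 0.66 for Plcb1 with surface ectoderm (permutation p = 0.00516, adjusted p = 0.119). The lowest were -0.65 for Car7 and -0.64 for Emp1 with neural tube (adjusted p = 0.193 each, by permutation). The 5 surface ectoderm markers summed to 6264 to 7182 normalized reads in G3 embryos labelled mutant and 3389.9 to 6648 in G3 controls, and to 5539 to 7295 in G17 mutants and 3934 to 5102 in G17 controls, where the groups did not overlap. They were on balance higher in mutants, in which Plcb1 was lower, and their part in the Plcb1 levels was not tested. With the yolk sac marker sum, Fndc5 had an r of 0.66 (permutation p = 0.0126, adjusted p = 0.177), Gpr155 0.61 (permutation p = 0.0351, adjusted p = 0.198) and Ripk3 0.60 (permutation p = 0.0355, adjusted p = 0.198). The values for Emp1, Plcb1 and Rtn4rl2 were 0.39, 0.02 and -0.42. Among the genes themselves, 10 of 21 pairs had a positive r within groups and 0 passed; the highest were 0.75 for Gpr155 with Fndc5 (adjusted p = 0.167) and 0.70 for Fndc5 with Car7 (adjusted p = 0.0794).

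**Figure D4:**
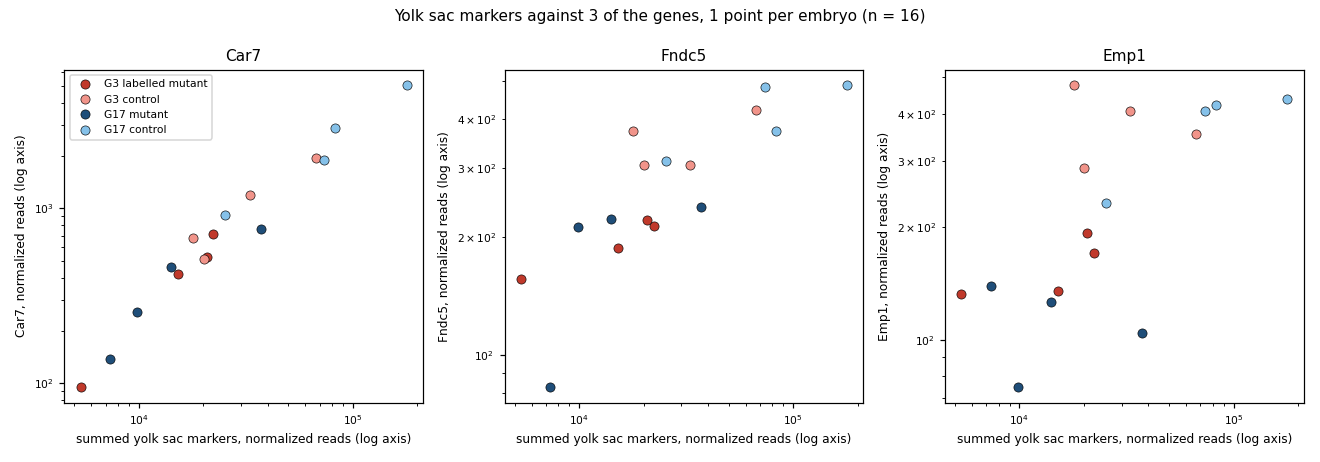
Normalized reads of Car7, Fndc5 and Emp1 (y axes, log scale) against the sum of 6 yolk sac markers in normalized reads (x axes, log scale), 1 point per embryo, n = 16, coloured by line and genotype. Car7 follows the markers across all 4 groups (within-group r of 0.96). Emp1 splits into mutants below and controls above (r of 0.39), but few mutants and controls of a line have like marker sums. In G17 only mutant 33 (37199.7) has a sum above that of a control, control 20 (25375).

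The genes whose levels over the 16 embryos were most like each of the 7 were found by Pearson r of deviations from the line mean, over 11341 genes of at least 5 CPM; these values include the mutant and control difference, so they are a description without a test. Closest to Emp1 were Mest (0.93), Ankrd1 (0.93) and Ccdc25 (0.93). Closest to Rtn4rl2 were 1110038B12Rik (0.89), Gpatch2 (0.88) and Knop1 (0.87), and closest to Fndc5 were Lrrc41 (0.95), Ankrd6 (0.92) and Terf1 (0.90). Gpr155 was matched best by Rab4a (0.95), Pls1 (0.94) and Zfp948 (0.92), and Plcb1 by Mrps18b (0.91), Mycbp2 (0.88) and Tacc2 (0.87). Ripk3 was matched by Ltv1 (0.92), Anapc4 (0.87) and Tmem120a (0.86). Car7 was matched by Apoa1 (0.98), which is 1 of the 6 yolk sac markers, Slc13a4 (0.98) and Aqp3 (0.98). No gene was named for more than 1 of the 7.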

How the data were processed

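The cardiac region of single E8.5 embryos was dissected and flash frozen, and total RNA was sequenced in 100-base paired-end runs to a mean depth stated as 50 M, per the labels' protocols. HISAT2, featureCounts of Subread, DESeq2 and GRCm38 are named in the submitters' processing notes, without versions. The authors deposited 1 table per line with a normalized signal per embryo, that is DESeq2-normalized reads of 48526 genes; per the values, 99.97% to 100% of them gave whole reads within 0.01 once multiplied by the size factor. Unused columns of samples numbered 0.

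Each line was fitted on its own 8 embryos with limma 3.58.1 (R 4.3.3, mean-variance trend) on log2(value + 1), for genes with at least 10 normalized reads in at least 4 embryos; the threshold was an adjusted p (Benjamini-Hochberg, over all genes) under 0.05. The 7 genes, the 7 partner lists (81 genes) and the 9 marker lists (50 genes) were chosen with earlier results of these data known. Named besides them are Greb1l, called partners, measured relatives of Emp1, Plcb1, Rtn4rl2 and Car7, and the 3 genes most like each of the 7; some carbonic anhydrases of lower level and Lim2, which has more than 1 ID, were left out. RPKM was computed from recovered reads and GENCODE M21 exon lengths. Alternatives were edgeR 4.0.16, DESeq2 1.42.0 and limma-voom on recovered reads, other filters, pseudocounts and thresholds, TMM, 1 fit of all 16 embryos, sex as a term in G3, and each embryo left out. The labels give no litters or batches and do not say that embryos of a group were processed apart, so p-values measure the spread between these embryos. The closest of 24 pairs within groups differed by a chi-square of 17.4 per degree of freedom, so no library was counted as a duplicate.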

Additional observations from a re-analysis of the deposited data

Results flagged for a closer look

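In 4 of 32 groups of 4 embryos (the 7 genes and Greb1l, in 4 groups), 1 embryo stood apart by Dixon's criterion (its gap to the nearest embryo over the range of the group); chance gives about 1 in 20. Fndc5 in G17 mutant 36 was the lowest of its group at 82.6 normalized reads, and this embryo also had the lowest yolk sac marker sum of G17. Gpr155 in G3 control 21 was the highest of its group at 291 normalized reads, in the embryo with the highest yolk sac marker sum of G3. Emp1 in G17 control 20 was the lowest of its group at 231.5 normalized reads, and this control had the lowest yolk sac marker sum of the G17 controls. Rtn4rl2 in G17 control 29 was the lowest of its group at 21.1 normalized reads, in the embryo with the highest yolk sac marker sum of all 16. Over the 16 embryos, none of these genes had a within-group relation to the yolk sac marker sum that passed the adjustment. The permutation adjusted p was 0.177 for Fndc5, 0.198 for Gpr155, 0.567 for Emp1 and 0.625 for Rtn4rl2. The part of the markers in these single values was not tested.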

How the results depend on the processing

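The 7 genes were chosen for lower levels in mutants, so negative signs here support nothing by themselves. The changed thresholds (adjusted p under 0.01 or 0.1) are among the alternatives and leave the log2 differences as they were. The log2 differences of the 7 genes were negative under all 19 to 21 alternatives of each line, with 1 exception. This was Ripk3 in G17 with the yolk sac marker sum as a term (0.22). In that added fit the differences also moved for Car7 (-0.15 in G3, -0.54 in G17) and, in G17, for Gpr155 (-0.58), Fndc5 (-0.42) and Rtn4rl2 (-1.92). It called 90 genes lower and 194 higher in G3, with 0 partners lower and 1 higher, and 25 lower and 113 higher in G17, with 0 partners higher. DESeq2 called 593 lower and 688 higher in G3, and 507 lower and 565 higher in G17, with 1 partner lower and 3 higher. With at least 5 CPM, 1 partner was lower in G3, where Ngfr fell below the filter and was not tested, and 2 were higher in G17. At an adjusted p under 0.01 the counts were 74 lower and 161 higher in G3 (0 partners lower, 1 higher) and 25 and 134 in G17. Under 0.1 they were 550 and 670 in G3 and 411 and 517 in G17 (1 partner lower, 3 higher). With 1 fit of all 16 embryos, 480 genes were lower and 515 higher in G17, with 1 partner lower and 2 higher. The causes of the other changes were not tested.

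With each embryo left out in turn, 126 to 329 genes were lower and 213 to 556 higher in G3, and 50 to 296 lower and 169 to 378 higher in G17. Of the partners, 1 to 3 lower and 1 to 2 higher in G3, and 0 lower and 1 to 2 higher in G17. The differences ran between -1.39 and -1.15 in G3 and between -1.95 and -1.56 in G17 for Emp1, between -0.82 and -0.38 and between -1.90 and -1.30 for Gpr155, and between -1.12 and -0.74 and between -1.37 and -0.79 for Plcb1. They ran between -0.91 and -0.75 and between -1.37 and -0.86 for Fndc5, between -1.44 and -1.10 and between -1.20 and -0.12 for Rtn4rl2, between -1.38 and -0.96 and between -0.97 and -0.43 for Ripk3, and between -1.77 and -0.81 and between -3.18 and -2.32 for Car7. No paired analysis was possible because the mutants and controls of a line share no replicate number. Groups of 4 embryos leave wide intervals.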

Other observations

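Among the 8 G17 embryos, which have high Xist, mutant 36 had low values of Y-linked genes, with 32.5 normalized reads of Ddx3y, 12.99 of Uty, 16.7 of Eif2s3y and 0 of Kdm5d. The other 7 G17 embryos had 0 reads of all 4. The same embryo had the lowest Fndc5, Gpr155, Ripk3 and Car7 levels of the G17 line. It also had the highest Emp1 (139) and Plcb1 (282) levels, in normalized reads, of the G17 mutants.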
